A study of Mus musculus with 6 samples.

Results

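*Ly6a* encodes Sca1, the surface protein by which mouse hematopoietic stem cells (HSCs) are sorted, and it belongs to the Ly6 family of small, mostly GPI-anchored proteins. The genes examined here are *Ly6a*, *Ly6e*, *Ly6c1*, *Ly6c2*, *Ly6d*, *Ly6k* and *Ly6g6c*, 7 of the 34745 genes in the deposited tables. They were found by their gene names, and all 7 have a row in both the count table and the FPKM table. Of these, 4 had a count in any library and 2, *Ly6a* and *Ly6e*, passed the filter on low counts that left 12513 genes for testing. Bulk RNA-seq had been carried out on HSCs sorted from the bone marrow of adult C57BL/6 mice, with 3 WT and 3 *Med23*-deficient (KO) samples. WT animals carried the floxed gene alone (Med23floxp/flowp) and KO animals also carried Mx1-cre (Mx1-cre;Med23floxp/flowp). The promoter of Mx1-cre responds to interferon, and in the study deletion is induced with poly(I:C), which sets off an interferon response. When it was given to the animals of these libraries is not given in the sources used here. Cells of both groups had been gated as LSK, that is lineage-negative, Sca1-positive and cKit-positive, and further as CD150+CD34-CD48-. Sca1 protein was therefore a condition for a cell to enter any of the 6 samples, and the *Ly6a* values below are RNA levels among cells already selected for the protein. Whether each sample came from a separate animal is not stated, so the p-values measure the spread between these samples, which may be partly technical.

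Ly6 proteins share a compact fold of loops held by disulfide bonds and sit in the outer leaflet of the membrane by a GPI anchor. Most of the mouse genes lie in a cluster on chromosome 15, and several of them, *Ly6a* and *Ly6e* included, are induced by interferons. In blood, *Ly6a* marks stem cells and early progenitors as well as activated lymphocytes. *Ly6e* is widely expressed in immature blood cells and thymocytes. *Ly6c1* and *Ly6c2* encode the Ly6C antigen, known for monocytes, and *Ly6c1* also for endothelium. *Ly6d* marks lymphoid progenitors on the way to B cells, *Ly6k* is a germ cell gene, and *Ly6g6c* lies apart from the cluster, in the major histocompatibility region.

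In GRCm38 (mm10), with the GENCODE M21 annotation, *Ly6a* (ENSMUSG00000075602) lies at chr15:74994877-74998031 on the minus strand. *Ly6e* (ENSMUSG00000022587) lies at chr15:74955051-74959905 on the plus strand. *Ly6c1* (ENSMUSG00000079018) is at chr15:75044018-75048830 and *Ly6c2* (ENSMUSG00000022584) at chr15:75108158-75111970, both on the minus strand. *Ly6d* at chr15:74762056-74763620 and *Ly6k* at chr15:74796874-74799986 are on the same strand, and *Ly6g6c* is at chr17:35065388-35070050 on the plus strand. No annotated gene overlaps *Ly6a*, *Ly6e*, *Ly6c1*, *Ly6c2* or *Ly6d*. *Ly6k* and *Ly6g6c* each overlap another annotated gene.

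The neighbours *Ly6a*, *Ly6c1* and *Ly6c2* are close copies, which bears on how reads are divided between them. The following pair of coding stretches is shown because it holds the longest run that *Ly6a* shares with *Ly6c2*, 52 bases within 1 exon of each gene. The run, in capitals, is at coding bases 333 to 384 of *Ly6a* (chr15:74995283-74995334) and 324 to 375 of *Ly6c2* (chr15:75108564-75108615), read 5′ to 3′ on the minus strand.
Ly6a: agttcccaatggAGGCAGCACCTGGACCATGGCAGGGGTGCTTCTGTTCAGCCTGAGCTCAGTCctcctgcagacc
Ly6c2: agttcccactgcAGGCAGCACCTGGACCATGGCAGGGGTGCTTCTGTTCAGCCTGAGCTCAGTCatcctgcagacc

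*Ly6c1* and *Ly6c2* are closer still, and their coding sequences are identical over 188 bases, from base 66 to base 253 of each. The stretch is spliced from exons between 75045545 and 75048446 for *Ly6c1* and between 75108686 and 75111602 for *Ly6c2*, on the minus strand of chromosome 15. It is shown, again with the identical run in capitals, because reads that fall within it cannot be assigned to either gene.
Ly6c1: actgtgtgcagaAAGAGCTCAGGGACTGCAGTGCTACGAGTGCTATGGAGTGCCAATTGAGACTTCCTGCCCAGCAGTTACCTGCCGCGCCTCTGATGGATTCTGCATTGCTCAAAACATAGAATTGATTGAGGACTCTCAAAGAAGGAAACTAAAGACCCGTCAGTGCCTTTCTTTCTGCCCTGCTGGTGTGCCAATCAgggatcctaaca
Ly6c2: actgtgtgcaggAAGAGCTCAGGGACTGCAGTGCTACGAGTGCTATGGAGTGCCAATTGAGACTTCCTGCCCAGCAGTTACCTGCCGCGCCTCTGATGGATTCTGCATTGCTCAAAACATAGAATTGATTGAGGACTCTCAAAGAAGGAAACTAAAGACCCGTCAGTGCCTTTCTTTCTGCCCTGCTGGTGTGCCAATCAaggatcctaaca

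Over the annotated transcripts, 19.0% of the 50-base windows of *Ly6a* were found in a transcript of another gene, as were 32.8% of those of *Ly6c1* and 14.4% of those of *Ly6c2*. At 100 bases the shares were 1.45%, 10.1% and 5.81%. *Ly6e*, *Ly6d*, *Ly6k* and *Ly6g6c* shared no window of either length. Of the 1764 50-base windows of *Ly6c1*, 379 were shared with *Ly6c2* and 195 with *Ly6a*. The read length of these libraries is not given in the sources used here. The *Ly6c1* and *Ly6c2* counts are therefore uncertain as to which of these genes, *Ly6a* included, they belong to. The *Ly6e* counts have no such limit.

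Reads counted on genes totalled 3537269 to 8131344 in the WT and 4760545 to 5281232 in the KO libraries, and the detection limit used here, 3 counts, equals 0.369 to 0.927 CPM depending on the library (CPM being counts scaled to a common library size with TMM factors). *Med23*, the deleted gene, was covered by 232, 576 and 78 reads in the WT libraries, in the order of their replicate numbers, and by 156, 164 and 182 in the KO libraries. That is 47.6, 70.8 and 24.1 CPM against 31.6, 29.8 and 36.8 CPM. The library labelled WT replicate 3 therefore had less *Med23* than every KO library, and the groups overlapped. The fitted *Med23* difference was -0.54 ± 0.41 (log2 KO over WT ± SE, edgeR adjusted p = 0.989) with all libraries, -0.85 without WT replicate 3 and -0.13 without WT replicate 2. Reads of 4 Y-linked genes summed to 1 and 0 counts in replicate 3 of WT and KO and to at least 1036 in each other library. WT replicate 3 below means the library so labelled, and the *Ly6a* and *Ly6e* results are given also without these libraries.

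In the same order, *Ly6a* was counted at 1055, 1238 and 662 reads in WT and at 506, 447 and 744 reads in KO. After scaling, this was 216, 152 and 205 CPM in WT and 103, 81.4 and 151 CPM in KO. Every KO library lay below every WT library, but KO replicate 3 came within 1.04% of WT replicate 2, so the groups adjoin. Counting alone gives errors of 2.84 to 4.73% per library, larger than that gap and well under the spread within each group. The means were 191 ± 34.2 CPM in WT and 111 ± 35.5 CPM in KO (SD, n = 3).

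The KO level of *Ly6a* was fitted at 58.4% of WT, with a 95% confidence interval from 38.3 to 89.0%. The log2 fold change was -0.78 ± 0.27 (SE), and edgeR's quasi-likelihood test gave an adjusted p = 0.696 over all tested genes, from an unadjusted p of 0.0172. The difference does not pass the adjusted threshold, which 9 genes or 0.0719% of those tested did. Unadjusted p-values under 0.05 with a lower KO level were found for 2.77% of genes, and every KO library lay below every WT library for 6.15%. By p, *Ly6a* ranked 308th of 12513 genes, and 8.34% of genes had a log2 fold change at least as negative. An exact two-sided permutation test gave p = 0.1, the smallest that 3 samples against 3 allow. In bulk RNA, fewer cells carrying a transcript and less of it per cell cannot be told apart. The study singled out *Ly6a* on these same libraries, so its direction here is not independent evidence.

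*Ly6e*, the most abundant member by counts, was counted at 3185, 5473 and 2466 reads in WT and 1708, 2731 and 3307 in KO. In CPM the levels were 653, 673 and 762 in WT and 346, 497 and 669 in KO. WT libraries lay close together, with a mean of 696 ± 58.2 CPM, and KO libraries were spread over a wider range, with a mean of 504 ± 162 CPM (SD, n = 3). KO replicate 3 exceeded WT replicate 1 by 2.48%, so the groups overlapped under TMM scaling. Under division by the total count, which also underlies FPKM, the same library fell 3.90% short of WT replicate 1 and the groups did not overlap.

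*Ly6e* was fitted at 72.4% of the WT level in KO, with a 95% confidence interval from 49.9 to 105%. The log2 fold change was -0.47 ± 0.24 (SE), with p = 0.0824 and an adjusted p = 0.931 by edgeR's quasi-likelihood test, and the exact permutation test gave p = 0.2. Its size rested on single libraries. It was -0.25 without KO replicate 1 and -0.72 without KO replicate 3.

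**Figure D1:**
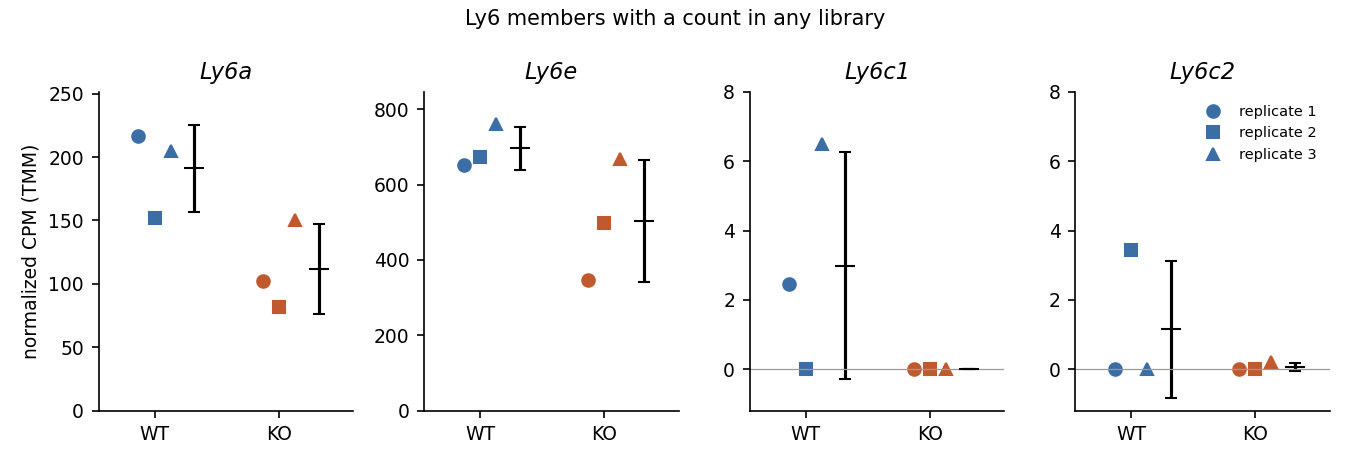
Normalized CPM (y axis) of the 4 Ly6 members with a count in any library, in each WT and KO library, with symbols for the replicate number and bars for mean and SD. *Ly6a* ranges from 152 to 216 in WT and 81.4 to 151 in KO, *Ly6e* overlaps between groups at KO replicate 3, and *Ly6c1* and *Ly6c2* are at 0 in most libraries.

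Replicate 3 had the highest *Ly6a* and *Ly6e* levels of the KO group. Without KO replicate 3 the *Ly6a* log2 fold change was -1.05 ± 0.28, and with replicate 3 of both groups left out it was -0.99 ± 0.29 (SE, edgeR adjusted p = 0.621). Without WT replicate 3, the library low in *Med23*, *Ly6a* stood at -0.72 ± 0.30 and *Ly6e* at -0.39 ± 0.27. *Ly6a* was negative under each of the 16 alternatives tried, from -1.05 to -0.59, and had an adjusted p between 0.333 and 0.9999. *Ly6e* was negative in the same 16, from -0.72 to -0.25.

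**Figure D2:**
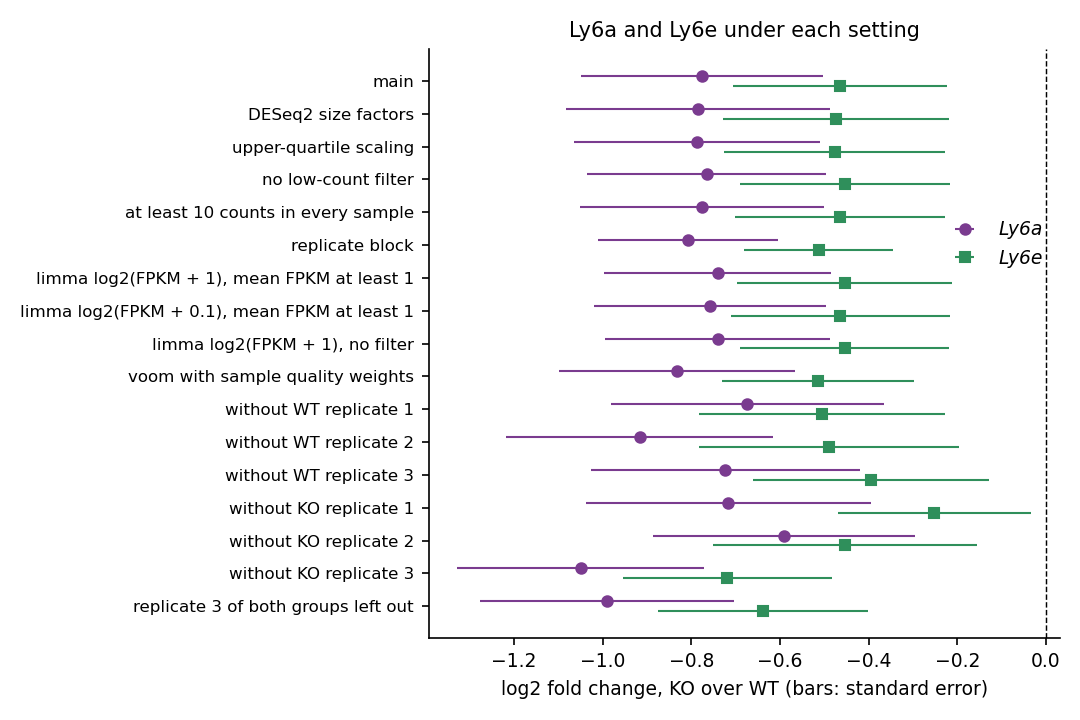
Log2 fold change of KO over WT (x axis) of *Ly6a* and *Ly6e* as reported (main) and under each alternative (y axis), with bars for the standard error. Each point is below 0, *Ly6a* lies between -1.05 and -0.59, and *Ly6e* comes nearest to 0, at -0.25, when KO replicate 1 is left out.

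*Ly6c1* was counted at 12, 0 and 21 reads in WT and at 0 in every KO library. Its WT levels were 2.46, 0 and 6.49 CPM. It was detected in 2 of the 3 WT libraries and missing from the deepest of them, so the groups overlap at 0.

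*Ly6c2* had 28 reads in WT replicate 2 and none in the other WT libraries, and a single read in KO replicate 3. The 2 genes were thus seen in different WT libraries, with *Ly6c2* at 3.44 CPM in the library where *Ly6c1* was at 0. Neither passed the filter on low counts, and no fold change was computed. Such a pattern was common at this level. Of the 2950 genes whose highest library had 10 to 40 counts, 613 (20.8%) were at 0 in 4 or more of the 6 libraries.

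*Ly6d*, *Ly6k* and *Ly6g6c* had 0 counts in all 6 libraries, which allows a level of up to 0.369 to 0.927 CPM depending on the library, for counting error only. A difference between groups was not detectable at this depth for any of the 3.

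Levels can be compared between genes only per length, and here the length matters. The deposited FPKM of *Ly6a* implies a length of 3452 bases, whereas its exons, merged where transcripts overlap, cover 1205 bases and the whole gene spans 3155. For *Ly6e* the implied length is 12485 bases against 3784 merged and a span of 4855. Over 18944 genes, 72.3% had an implied length within 0.1% of the sum of their distinct exons with overlaps counted again, so FPKM understates genes with many overlapping exons. FPKM was 64.3, 44.1 and 54.2 for *Ly6a* and 53.7, 53.9 and 55.8 for *Ly6e* in WT replicates 1 to 3. In KO it was 30.8, 24.5 and 42.0 for *Ly6a* and 28.7, 41.4 and 51.6 for *Ly6e*.

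Per kilobase of merged exon, *Ly6e* stood at 184 ± 15.4 CPM and *Ly6a* at 159 ± 28.4 CPM in WT, and at 133 ± 42.7 and 92.5 ± 29.4 CPM in KO (SD, n = 3). The ranges of the 2 genes overlapped in both groups, so their order is not separated from the spread. Within a library the ratio of *Ly6e* to *Ly6a* on this scale went from 0.961 in WT replicate 1 to 1.95 in KO replicate 2. By deposited FPKM the same ratio ran from 0.835 to 1.69. *Ly6c1* followed at 1.78 ± 1.95 CPM per kilobase and *Ly6c2* at 0.419 ± 0.725 in WT, both far below the first 2 and not separated from each other.

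Of 40 other Ly6/uPAR family genes, 31 had a row in the tables, 20 of those were at 0 in all libraries and 4 passed the filter. None of the 4 passed the adjusted threshold or had an unadjusted edgeR p under 0.05, and their groups overlapped. *Cd59a*, an inhibitor of complement lysis, was counted at 33, 37 and 101 reads in WT and 113, 238 and 176 in KO. WT replicates 1 and 2 were low, and WT replicate 3, at 31.2 CPM, exceeded KO replicate 1, at 22.9 CPM. Its log2 fold change was 1.29 ± 0.69 (SE, edgeR adjusted p = 0.933), and it was 2.59 without WT replicate 3 and 0.84 without WT replicate 2.

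*Plaur*, the urokinase receptor, had 37.3, 22.0 and 11.7 CPM in WT and 16.8, 5.82 and 4.05 CPM in KO. KO replicate 1 lay above WT replicate 3. The log2 fold change was -1.42 ± 0.67 (SE, edgeR adjusted p = 0.909), -2.26 without KO replicate 1 and -0.93 without WT replicate 1. *Lynx1*, a modulator of nicotinic acetylcholine receptors, had between 10 and 41 reads per library and a log2 fold change of 0.51 ± 1.003. *9030619P08Rik*, annotated as a transcribed pseudogene within the cluster, had 150 to 340 reads and a log2 fold change of 0.29 ± 0.41. The sign of the last 2 turned when 1 KO library was left out, to -0.21 without KO replicate 2 for *Lynx1* and -0.091 without KO replicate 3 for *9030619P08Rik*.

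**Figure D3:**
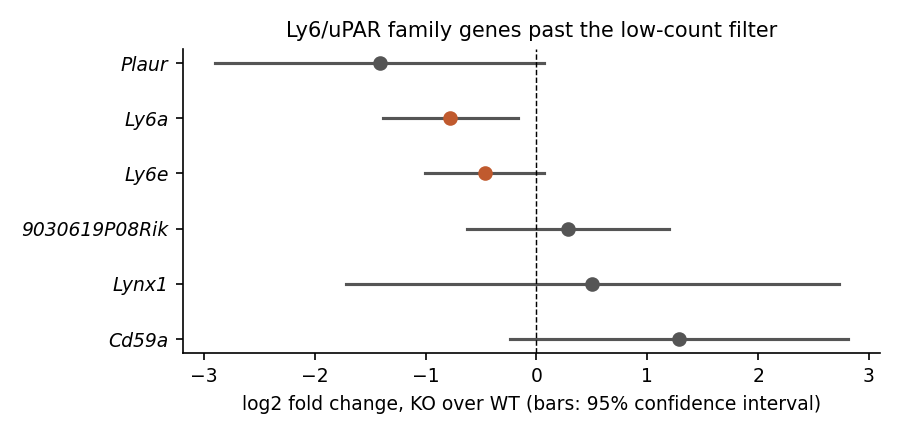
Log2 fold change of KO over WT (x axis) with its 95% confidence interval for the 6 Ly6/uPAR family genes that passed the filter, with *Ly6a* and *Ly6e* in orange. The interval of *Ly6a*, from -1.38 to -0.17, is the one that leaves out 0, before adjustment for the number of genes tested.

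The other family genes with any count were near the limit of detection. *Ly6i*, a close neighbour of *Ly6a*, had 11 reads in WT replicate 3 and none elsewhere. *Ly6h*, a gene known from brain, had 5, 3 and 2 reads in KO replicates 1 to 3 and none in WT. *Ly6g*, the granulocyte antigen used for lineage exclusion, was at 0 in all libraries.

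Along chromosome 15, the cluster from *Psca* to *Gpihbp1* (chr15:74714839-75599481, 885 kb) holds 45 genes of the tables. Of these, 28 were at 0 in every library, 12 had 1 to 50 counts over the 6 libraries and 5 had more, and *Ly6a* and *Ly6e* took 91.4% of the 25742 counts of the cluster. They lie 43.0 kb apart from start to start. Outside the cluster but within 1000 kb of *Ly6a*, 14 genes were tested, with log2 fold changes from -0.58 to 2.16 and a median of -0.31, beside a median of -0.01 over all tested genes. In 3 of these every KO library was lower and in 1 every KO library was higher, beside 6.15% and 6.25% of all tested genes. For 0 of the 14, edgeR's adjusted p was under 0.05. Among the 14, *Eef1d*, a translation elongation factor subunit chosen here after its values were seen, had an unadjusted p under 0.05 and a log2 fold change of -0.58.

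**Figure D4:**
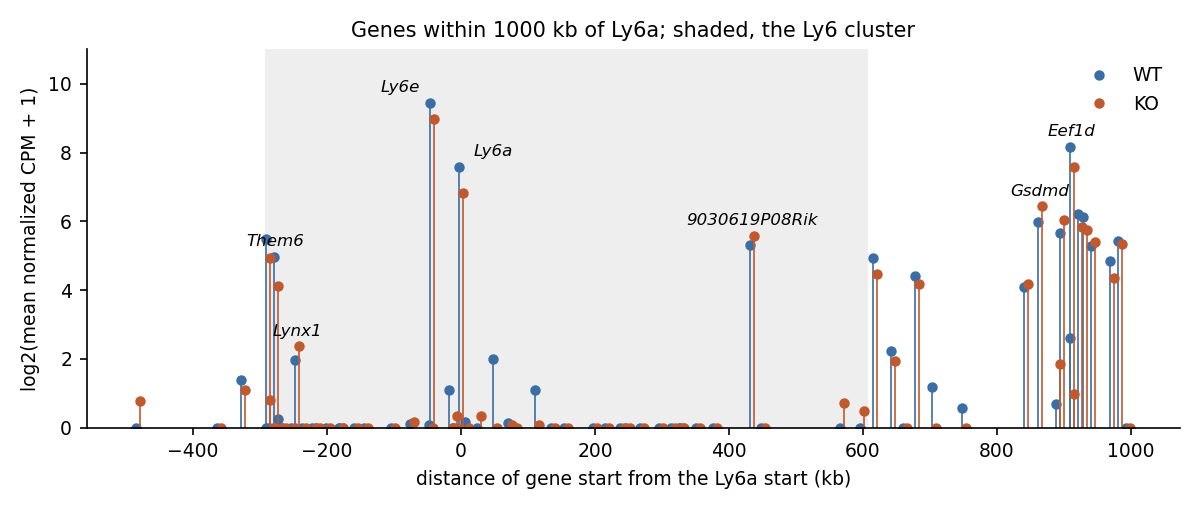
Log2 of mean normalized CPM plus 1 (y axis) in WT and KO for the genes of the tables within 1000 kb of *Ly6a*, by distance between gene starts in kb (x axis), with the Ly6 cluster shaded. *Ly6e* and *Ly6a* stand out in a cluster in which 28 of 45 genes are at 0.

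Ly6 proteins reach the surface on a GPI anchor, so the genes that build and attach it were examined. Of 31 such genes in the tables, 29 were tested and had a median of -0.05 in log2 fold change. Neither the adjusted threshold nor an unadjusted edgeR p under 0.05 was met by any of them. *Mppe1*, which trims the anchor on its way out of the endoplasmic reticulum, had 46.7, 50.5 and 45.7 CPM in WT and 33.0, 32.2 and 40.3 CPM in KO (log2 fold change -0.44 ± 0.31). *Pigp*, a subunit of the enzyme that starts the anchor, had 51.1, 48.9 and 42.3 CPM in WT and 52.7, 57.0 and 67.6 CPM in KO (log2 fold change 0.32 ± 0.29).

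Among 29 other GPI-anchored surface proteins of blood cells, 17 were tested and had a median of -0.39 in log2 fold change. None passed the adjusted threshold by edgeR. Unadjusted p-values under 0.05 were found for 4 with a lower and 1 with a higher KO level, beside 2.77% and 2.94% of all genes, and every KO library was lower in 4 and higher in 2, beside 6.15% and 6.25%. *Efna1*, an ephrin ligand, had 25.2, 13.9 and 27.2 CPM in WT and 6.08, 6.55 and 2.63 CPM in KO (log2 fold change -2.11 ± 0.60, edgeR adjusted p = 0.464). *Prnp*, the prion protein and a GPI-anchored marker of HSCs, had 48.6, 54.8 and 75.7 CPM in WT and 20.7, 18.9 and 7.89 CPM in KO (log2 fold change -1.91 ± 0.44, edgeR adjusted p = 0.301). *Sema7a*, a semaphorin, had 35.1, 25.6 and 18.2 CPM in WT against 9.52, 14.7 and 7.89 CPM in KO. In these 3 genes, those with the largest fold changes among genes whose groups do not overlap, all KO libraries were below all WT libraries.

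Since *Ly6a* and *Ly6e* are interferon-induced genes and poly(I:C) is an inducer, the interferon receptor and response genes were set beside them. All 44 were in the tables and 42 were tested and had a median of 0.02 in log2 fold change. By edgeR 0 passed the adjusted threshold. An unadjusted p under 0.05 was found for 1, with a higher level in KO, beside 2.94% of all genes. Every KO library was lower in 3 and higher in 2, beside 6.15% and 6.25%. The summed level of the list was 3831 to 4964 CPM in WT and 4404 to 5112 CPM in KO, and these ranges overlapped. *Mx1*, the gene whose promoter drives the Cre, had 0.820, 1.598 and 2.47 CPM in WT and 4.05, 2.91 and 4.05 CPM in KO (log2 fold change 1.17 ± 1.03, edgeR adjusted p = 0.989). *Ddx58*, the RNA sensor RIG-I, had 102, 99.4 and 47.9 CPM in WT and 173, 122 and 113 CPM in KO. *Cmpk2*, a mitochondrial kinase induced by interferon, went the other way, with 87.5, 82.0 and 131 CPM in WT and 69.3, 67.0 and 79.5 CPM in KO.

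The genes closest to *Ly6a* in pattern were found by the mean absolute difference, over the 6 libraries, between log2 levels centred on each gene's own mean. Among 12512 genes these were *2810403D21Rik* at 0.079, *Fkbp5*, a co-chaperone of steroid receptors, at 0.082, *Nap1l1*, a nucleosome assembly protein, at 0.110, *Isg15*, the interferon-induced ubiquitin-like protein, at 0.124, and *Men1*, the menin subunit of histone methyltransferase complexes, at 0.129. The difference for the median gene was 0.590, and *Ly6e* ranked 342nd at 0.276. *Isg15* had 22.6, 20.8 and 30.3 CPM in WT and 14.0, 10.7 and 23.3 CPM in KO. These values are a description over 6 libraries, and within a library all genes share its depth and scaling factor.

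The genes behind the sort gate, and *Itgam* beside them, were compared as a check of the cells. *Kit*, the stem cell factor receptor, had 850, 937 and 796 CPM in WT and 720, 693 and 570 CPM in KO, each KO library being lower (log2 fold change -0.38 ± 0.18, edgeR adjusted p = 0.909). *Cd34*, whose protein was gated out, was present at 296, 360 and 343 CPM in WT and 520, 384 and 414 CPM in KO, each KO library being higher (log2 fold change 0.40 ± 0.20, edgeR adjusted p = 0.925). *Slamf1*, which encodes CD150, had 96.8, 90.9 and 21.02 CPM in WT and 37.3, 58.2 and 27.5 CPM in KO, and its groups overlapped. *Cd48* had 10, 28 and 0 reads in WT and 0 in KO. *Itgam* encodes the myeloid integrin CD11b, which is not among the targets of the lineage antibodies in the study's methods. It had 24, 6 and 39 reads in WT and 394, 435 and 364 in KO (log2 fold change 3.80 ± 0.74, edgeR adjusted p = 0.180).

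All of 39 stem cell genes other than the Ly6 members were expressed above the filter, and their log2 fold changes had a median of -0.01. Of these 39, *Egr1* passed the adjusted threshold, and 3 had a higher and 5, *Egr1* included, a lower KO level at an unadjusted p under 0.05, beside 2.94% and 2.77% of all genes. *Egr1*, an immediate early transcription factor, fell from 86.3, 72.1 and 102 CPM in WT to 6.48, 6.01 and 2.83 CPM in KO (log2 fold change -4.08 ± 0.42, edgeR adjusted p = 0.00432). *Vwf*, the von Willebrand factor of megakaryocyte-primed HSCs, had 337, 193 and 181 CPM in WT and 107, 146 and 67.8 CPM in KO. *Esam*, an adhesion molecule of HSCs, had 170, 164 and 199 CPM in WT and 93.2, 116 and 88.4 CPM in KO.

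Transcripts known from skeletal muscle differed between the groups, and which cells they came from was not tested. Of 23 skeletal muscle genes in the tables, 19 were tested, and 17 of them had a lower KO level at an unadjusted p under 0.05 with no overlap between groups, 3 of them past the adjusted threshold by edgeR. Over all genes the shares were 2.77% for such a p and 6.15% for every KO library being lower. Their summed level was 211 to 534 CPM in WT and 12.5 to 42.8 CPM in KO. *Myh3*, the embryonic myosin heavy chain, had 283, 346 and 329 reads in WT and 0 in KO (edgeR adjusted p = 0.00432). *Acta1*, skeletal actin, had 158, 195 and 188 reads in WT and 1, 0 and 1 in KO (edgeR adjusted p = 0.00432). *Actc1*, cardiac actin, had 104, 138 and 137 reads in WT and 0 in KO (edgeR adjusted p = 0.0254), and *Des*, the muscle intermediate filament desmin, had 63, 85 and 108 reads in WT and 0 in KO.

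Sca1 is also carried by stromal and fibro-adipogenic cells of muscle and by endothelium. Of 13 stromal genes, *Pdgfra*, *Dcn* and *Lum* were at 0 in all libraries, 3 were tested and 1 passed the adjusted threshold. That gene was *Gsn*, the actin-severing protein gelsolin, which is also made in blood cells and rose from 26.2, 52.5 and 32.5 CPM in WT to 202, 170 and 160 CPM in KO (edgeR adjusted p = 0.0288). The summed stromal level was 41.0 to 74.6 CPM in WT and 181 to 216 CPM in KO, where most of it was *Gsn*. Of 14 endothelial genes, 8 were tested and 0 passed by edgeR. At an unadjusted p under 0.05, 1 was lower, beside 2.77% of all genes, and every KO library was lower in 2, beside 6.15%. *Sox17* was at 0 throughout, and the summed level was 835 to 928 CPM in WT and 795 to 865 CPM in KO. *Cldn5*, a tight junction protein, had 54, 90 and 34 reads in WT and 0 in KO, and *Egfl7*, a secreted vascular factor also known from HSCs, had 219, 217 and 267 CPM in WT and 157, 140 and 212 CPM in KO. The cells of every library came from the gate given above, and the study's methods describe a double sort. The part of stromal, endothelial or muscle cells in the *Ly6a* and *Ly6c1* values was not tested.

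Genes of the granulocyte and monocyte lineages had a summed level of 129 to 207 CPM in WT and 342 to 629 CPM in KO. The median log2 fold change of those tested was 0.12. *Prtn3*, the granule protease proteinase 3, made up the greater part of the sum, at 83.0, 141 and 86.5 CPM in WT and 305, 307 and 355 CPM in KO (log2 fold change 1.63 ± 0.25, edgeR adjusted p = 0.0647). Of 24 genes, 5 were tested and 0 passed the adjusted threshold, with 1 higher at an unadjusted p under 0.05, beside 2.94% of all genes. *Ly6g*, *Ltf*, *Mmp8*, *Treml4* and *Fcnb* were at 0. *Ly6c2*, known for monocytes, had its reads in WT replicate 2, apart from 1 in KO replicate 3. Of 18 lymphoid genes, 4 were tested and 0 had an unadjusted edgeR p under 0.05, and *Il7r*, *Rag1* and *Rag2* were at 0 as was *Ly6d*. Erythroid genes, of which 5 of 11 were tested, summed to 1298 to 1732 CPM in WT and 1096 to 1379 CPM in KO. In 1 of them, *Epor*, the erythropoietin receptor, every KO library was lower, beside 6.15% of all genes. Its levels were 14.8, 13.3 and 50.1 CPM in WT and 5.27, 3.64 and 7.08 CPM in KO. Of the erythroid genes, 0 had an edgeR adjusted p under 0.05. The part of these lists in the *Ly6a* difference was not tested.

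**Figure D5:**
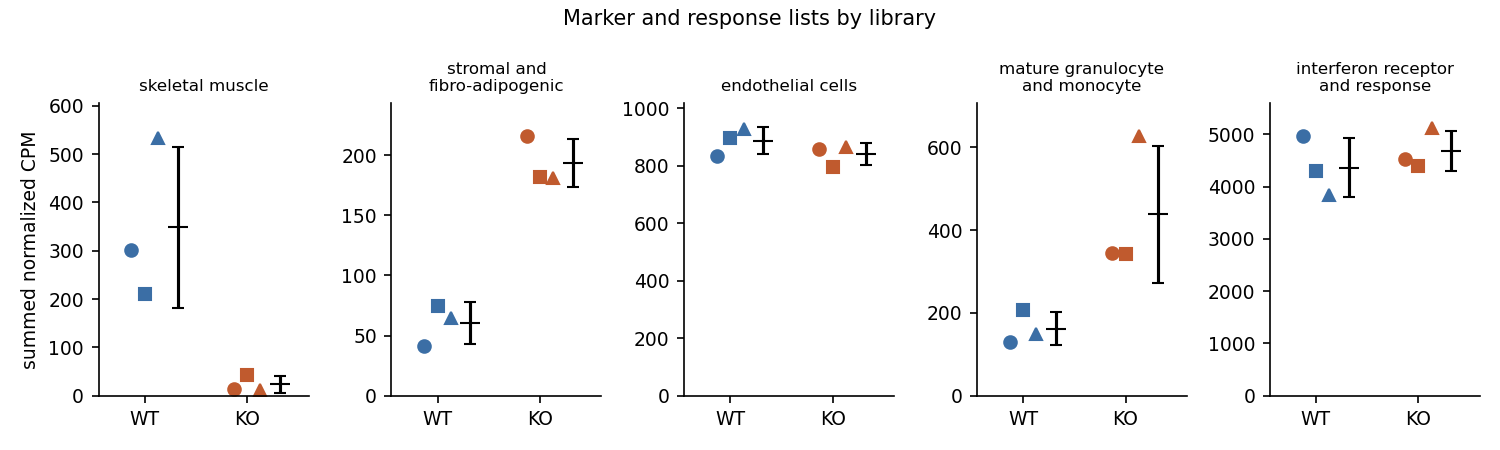
Summed normalized CPM (y axis) of 5 gene lists in each WT and KO library, with symbols for the replicate number and bars for mean and SD. The muscle list is at 211 to 534 in WT and 12.5 to 42.8 in KO, the stromal and myeloid sums are higher in KO with most of each from *Gsn* and *Prtn3*, and the endothelial and interferon lists overlap.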

How the data were processed

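The authors deposited raw read counts per gene, and FPKM values that divide those counts by the column total and by a length per gene. TopHat, HTSeq and mm10 are named in the submitters' processing notes. Versions, annotation, strand use and read length are not given in the sources used here. The study's methods name a TruSeq kit and the labels a SMART-Seq amplification, and neither describes molecular identifiers, so counting errors and detection limits cover counting only.

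Groups and replicate numbers were taken from the sample titles. KO was compared with WT on the counts with edgeR 4.0.16 in R 4.3.3, using filterByExpr, TMM scaling, robust dispersions and the quasi-likelihood test. P-values were adjusted by Benjamini-Hochberg over 12513 genes, with a threshold of 0.05. SE is the fold change over the root of F, and normalized CPM uses the TMM library size. An exact permutation test was run on log2(CPM + 0.5) of *Ly6a* and *Ly6e*. Of the identifiers, 34267 were found in GENCODE M21, the source of coordinates and sequences. The code was tested on simulated counts. Libraries of a group differed by more than counting noise.

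Alternatives were DESeq2 1.42.0, upper-quartile scaling, no filter, at least 10 counts in every sample, a replicate block, limma 3.58.1 on log2(FPKM + 1) with a minimum mean FPKM of 1 and without it and on log2(FPKM + 0.1), voom with sample quality weights, each library left out, and replicate 3 of both groups left out.

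The members, lists, tests and rule for named genes were chosen with earlier results of these data known. The rule names all members, *Med23*, family genes past the filter, *Kit*, *Slamf1*, *Cd34* and *Cd48*, list genes past the threshold, up to 3 genes per list whose groups do not overlap, in order of fold change, and the 5 genes most like *Ly6a*. Where *Ly6h*, *Ly6i*, *Ly6g*, *Them6*, *Mecom* or a gene at 0 is named besides, it was chosen after its values were seen.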

Additional observations from a re-analysis of the deposited data

How the results depend on the processing

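The direction of *Ly6a*, *Ly6e*, *Cd59a*, *Plaur* and *Med23* and their side of the adjusted threshold were the same under every alternative run. Leaving out 1 library moved *Ly6a* between -1.05 and -0.59 and *Ly6e* between -0.72 and -0.25 on the log2 scale. Unadjusted p-values were under 0.05 in 13 of 16 alternatives for *Ly6a* and in 4 of 16 for *Ly6e*. *9030619P08Rik* ran from -0.091 to 0.61 with 1 library left out, turning negative without KO replicate 3, and *Lynx1* from -0.21 to 0.89, turning negative without KO replicate 2, and the cause was not tested. *Lynx1* had no value in the 2 limma fits with a minimum FPKM, which it did not pass.

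The number of genes past the adjusted threshold, 9 in the reported fit, was within 1.5 times of it in 11 of 16 alternatives. It was 120 with DESeq2, 15 with limma on log2(FPKM + 1) above a mean FPKM of 1, and 0 with limma voom and sample quality weights, where 948 genes had an unadjusted p under 0.05. Leaving out 1 library gave 5 to 11, with 5 without WT replicate 1. The causes were not tested. With the replicate block the count was 5, *Ly6a* stood at -0.81 ± 0.20 (adjusted p = 0.384) and *Ly6e* at -0.51 ± 0.17 (adjusted p = 0.493). The labels do not say what a shared number means, so the samples were not taken as paired. The deviations of same-numbered libraries correlated at 0.170, 0.032 and 0.170, and those of other pairs at -0.173 to 0.035. Replicate 3 of WT and KO also shared a near absence of Y-linked reads, at 1 and 0 counts. These values do not decide whether same-numbered samples belong together. WT replicate 2 correlated best with KO replicate 1, at 0.035.

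Each group has 3 libraries, and library depth leaves levels below about 0.9 CPM undetected in the shallowest. Reads in stretches shared by *Ly6a*, *Ly6c1* and *Ly6c2* could not be reassigned from counts.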
